A study of Danio rerio with 2 samples.

Results

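The nuclear genes of oxidative phosphorylation were examined in single-cell transcriptomes of the zebrafish hypothalamus. The group was taken by name: genes whose symbol in the deposited feature list begins with nduf, with sdh followed by a letter from a to d, with uqcr, with atp5, or with cox followed by a digit from 4 to 8. This gave 99 of the 32057 listed features, namely 36 complex I subunits, 6 complex I assembly factors, 5 complex II subunits, 3 complex II assembly factors, 8 complex III genes, 21 complex IV genes and 20 complex V genes. The ndufa4 genes were counted with complex IV, where their product is known to sit. A further 6 features carry the same stems in capital letters (NDUFA4L2, NDUFAF4, NDUFAF6, NDUFB1, COX5B and COX7A2) and were not counted as members. Of the 99 members, 96 had at least 100 unique molecular identifiers (UMIs, each standing for 1 captured transcript end) over both libraries. The other 3 were uqcrb with 65 and 30 UMIs in the CCK1/2-KO and WT libraries, ndufb11 with 16 and 12, and ndufs1 with 0 and 2.

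The hypothalami came from CCK1/2-KO zebrafish, in which both genes for the neuropeptide cholecystokinin carry CRISPR/Cas9 deletions, and from WT zebrafish, all male and 6 months old. Tissue was collected from 30 fish per group, and each group is represented by 1 droplet-based library. Genotype, pool of fish, dissociation and library therefore cannot be told apart, and no test between genotypes can be made. The intervals given are 95% intervals for counting error only, which leave out differences between fish and the choice of captured cells.

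Oxidative phosphorylation is the last stage of respiration in mitochondria. Complex I and complex II pass electrons to ubiquinone, complex III passes them on to cytochrome c and complex IV to oxygen, and the proton gradient built on the way drives ATP synthesis by complex V. Complexes I, III, IV and V combine subunits made from nuclear genes with subunits made from mitochondrial DNA, whose genes are listed with the prefix mt-, while complex II is made from nuclear genes alone. Neurons and glia depend on this pathway to different degrees, and several complex IV subunits exist as paralogs with different tissue patterns in mammals.

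The CCK1/2-KO library held 11604 barcodes and the WT library 9364, of which 11470 and 9244 were kept, with 57954954 and 51639933 UMIs. The median kept barcode had 2774.5 UMIs in CCK1/2-KO and 2975 in WT. The edited ligand gene listed as ccka was at 163 UMIs per 1000000 UMIs of the library (CPM; 160.0 to 167) in CCK1/2-KO and 376 (371 to 382) in WT, a log2 ratio of −1.20 (−1.24 to −1.17), or −1.04 once the 3 top cells per library were dropped. A captured transcript end can lie outside an edited stretch, so this level bears on the labels without reading the edit. Its partner among the edited genes was not analysed here. The libraries shared 52 barcode sequences, which were treated as different cells.

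Barcodes were sorted into cell classes by raw counts of marker genes that are not members, and a second set of markers, not used for sorting, served as a check of each name. Of 13 classes listed, 10 had at least 50 cells in each library and are described. Their check markers stood 2.24-fold to 99.3-fold above the level in all other barcodes, and the weakest check was that of oligodendrocyte precursor-like cells, at 3.19-fold in CCK1/2-KO and 2.24-fold in WT with 3 of 4 check markers past 2-fold. The 10 genes leading by fold held 0 of the class's own markers in the neuron-like and in the macrophage or microglia-like class. In the macrophage or microglia-like class they included immunoglobulin and cytokine genes. A further 1433 CCK1/2-KO and 1425 WT barcodes carried markers of 2 classes, and 1363 and 1028 passed no class minimum. In erythrocyte-like cells haemoglobin transcripts took 41.9% of the UMIs in CCK1/2-KO and 45.9% in WT, and the median cell also held 7.73 and 8.22 neuron marker UMIs per 10000. In summed counts, fewer cells of a kind and less RNA per cell cannot be told apart.

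Astroglia-like and neuron-like cells devoted the largest shares of their transcripts to the 99 members. In astroglia-like cells the members made up 0.953% of UMIs in CCK1/2-KO (1506 cells) and 1.12% in WT (1241 cells). In neuron-like cells the shares were 0.948% (3995 cells) and 0.999% (3029 cells). At the other end of the order, erythrocyte-like cells had 0.463% in CCK1/2-KO and 0.451% in WT, so that the highest class was 2.06-fold and 2.48-fold above the lowest.

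**Figure D1:**
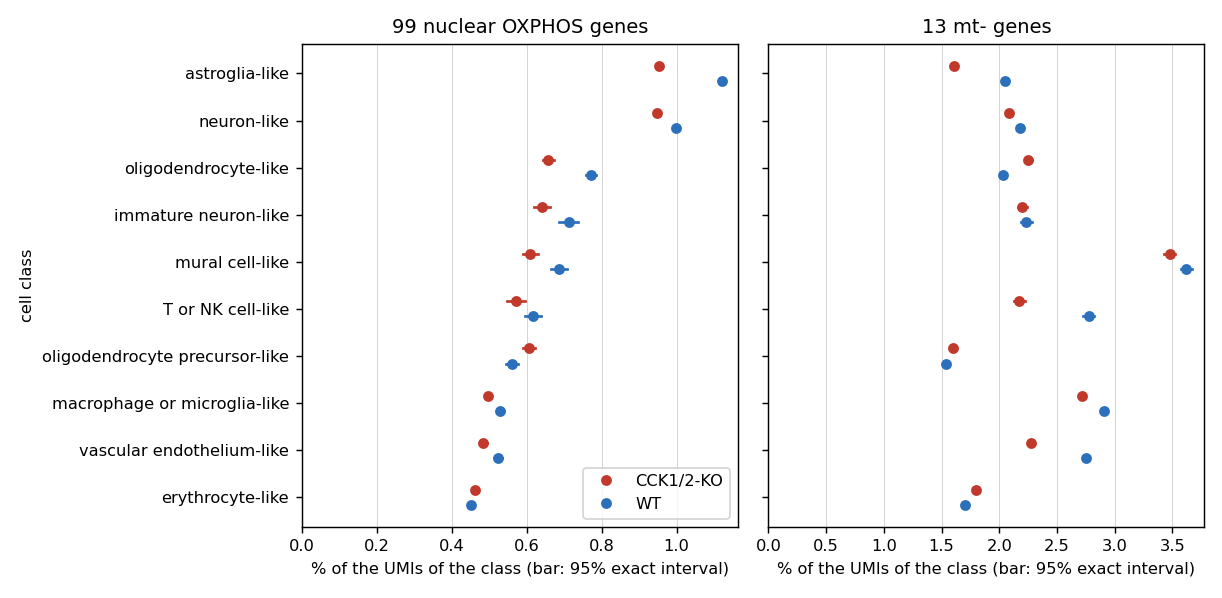
Share of the UMIs of a cell class, in percent, taken by the 99 nuclear members (left) and by the 13 mt- genes (right), for CCK1/2-KO (red) and WT (blue); bars are exact 95% intervals for counting error. Astroglia-like and neuron-like cells lie between 0.948% and 1.12% on the left, apart from the other classes, whose highest value is 0.772%, while on the right mural cell-like cells are highest at 3.48% and 3.62%.

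Between these ends lay oligodendrocyte-like cells with 0.658% in CCK1/2-KO and 0.772% in WT, immature neuron-like cells with 0.642% and 0.712%, and mural cell-like cells with 0.61% and 0.686%. The remaining classes were oligodendrocyte precursor-like cells with 0.607% and 0.561%, the T or NK cell-like class with 0.571% and 0.617%, macrophage or microglia-like cells with 0.496% and 0.529%, and vascular endothelium-like cells with 0.484% and 0.523%. In CCK1/2-KO the intervals of astroglia-like and neuron-like cells overlapped, as did those of each neighbouring pair from oligodendrocyte-like to T or NK cell-like cells and of macrophage or microglia-like and vascular endothelium-like cells. In WT the overlapping neighbours were immature neuron-like with mural cell-like cells and macrophage or microglia-like with vascular endothelium-like cells. Over the 10 classes the shares in CCK1/2-KO and WT followed one another with Pearson r = 0.97 and Spearman rho = 0.99, a description over classes that share a library and a depth. The erythrocyte-like share depended on its denominator: with haemoglobin genes out of the total it was 0.796% in CCK1/2-KO and 0.834% in WT, the third in the order of classes.

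The high share in neurons and astroglia was spread over most members rather than carried by a few. In neuron-like cells 84 of 96 members in CCK1/2-KO and 83 in WT were above their level in all other barcodes, against 52.6% and 50.4% of the 18325 features with at least 100 UMIs. In astroglia-like cells the counts were 69 and 79 of 96, against 37.9% and 39.1% of features. Vascular endothelium-like cells had 6 of 96 members above the other barcodes in each library, against 25.4% of features in CCK1/2-KO and 28.3% in WT. Within the neurons, cells with glutamate transporter transcripts had a higher share than cells with GABA synthesis or transport transcripts. The glutamatergic cells had 1.02% in CCK1/2-KO (786 cells) and 1.05% in WT (650 cells), and the GABAergic cells 0.915% (1834 cells) and 0.959% (1417 cells). The glutamatergic cells were also deeper, with a median of 8410 and 9574 UMIs against 6012 and 7318 in the GABAergic cells, and the part of depth in this difference was not tested.

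The mitochondrially encoded subunits did not follow the same order of classes. Their 13 genes made up the largest share in mural cell-like cells, 3.48% of UMIs in CCK1/2-KO and 3.62% in WT, and in astroglia-like cells 1.61% and 2.05%. The UMIs of the nuclear members divided by those of the mt- genes therefore ranged widely. The ratio was 0.592 in CCK1/2-KO and 0.548 in WT for astroglia-like cells, 0.456 and 0.458 for neuron-like cells, 0.182 in each library for macrophage or microglia-like cells, and 0.175 and 0.19 for mural cell-like cells. Over the 10 classes the nuclear and the mt- shares had Pearson r = −0.29 in CCK1/2-KO and −0.12 in WT, with Spearman rho = −0.21 and −0.05. Barcodes with more than 20% mt- UMIs had been left out, which were 5 of 11604 in CCK1/2-KO and 3 of 9364 in WT.

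Over all kept barcodes the members took 0.815% (0.813 to 0.818) of UMIs in CCK1/2-KO and 0.873% (0.87 to 0.875) in WT, a log2 ratio of −0.10 (−0.10 to −0.09). The mt- genes took 2.11% and 2.27%, a log2 ratio of −0.11 (−0.11 to −0.10). The nuclear UMIs per mt- UMI were accordingly close, at 0.386 in CCK1/2-KO and 0.384 in WT, with a log2 ratio of 0.01 (0.00 to 0.02). Among the mt- genes the differences were uneven. The complex V subunit gene mt-atp6 was at 2759 CPM in CCK1/2-KO and 3586 in WT (log2 ratio −0.38) and the complex I subunit gene mt-nd1 at 638 and 804 (−0.33), whereas mt-co1, a core subunit of complex IV, was at 3200 and 3193 (0.00).

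Most members lay on the same side of 0. Of the 96 members counted, 79 had a log2 ratio of CCK1/2-KO over WT below 0, against 49.9% of all 18325 features with at least 100 UMIs. Their median was −0.13, against 0.00 over all features. The counting interval lay below 0 for 68 members, above 0 for 11 and held 0 for 17. The same count was not made over all features. Such intervals narrow as UMIs rise, so these counts also reflect how abundant the members are. With a log2 ratio of 0.32 as the call, which is a fold of 5 over 4, 5 members were higher in CCK1/2-KO, against 13.2% of features, and 5 were lower, against 12.2% of features. The members higher were cox4i1l, ndufa4b, sdhaf2, sdhaf4 and sdhaf3, and those lower cox6a2, cox5b2, ndufaf7, ndufb3 and atp5md. Their counts past that fold were below the share of features, while the count below 0 was above it. The members are abundant: 2896 of the 18325 features had at least their median UMIs. Of those 2896, 51.0% were below 0. Their share past the called fold was not taken, so the low counts past it are not set against features of like abundance.

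**Figure D2:**
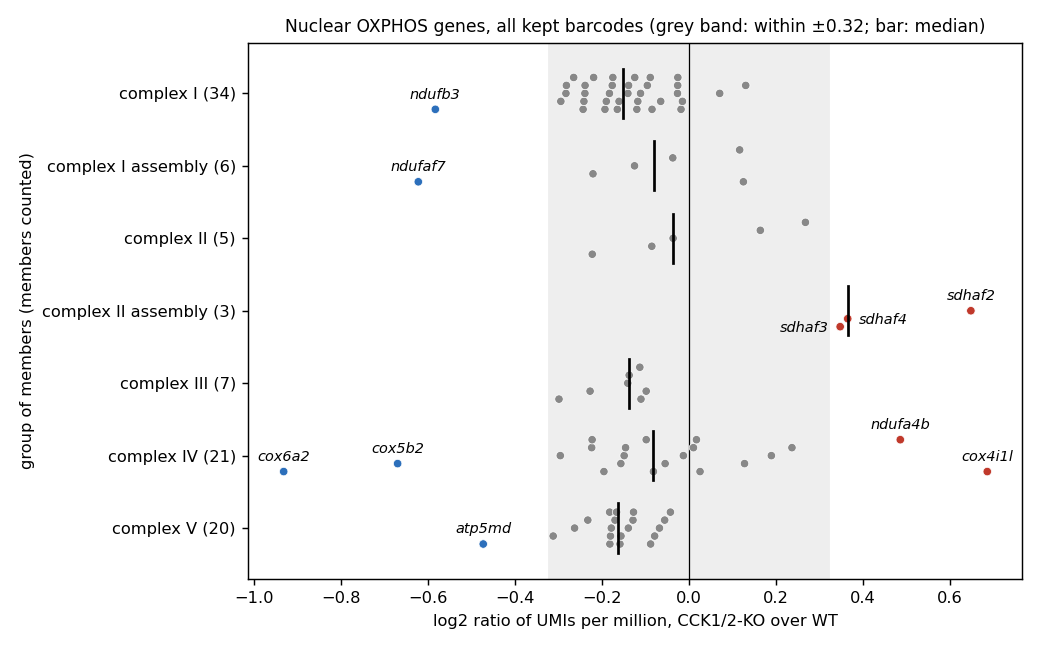
Log2 ratio of CPM, CCK1/2-KO over WT, for the 96 members with at least 100 UMIs, by complex; each point is 1 gene, the black bar is the median of the group, the grey band marks ratios within 0.32 of 0, and red and blue points lie above and below it. The 20 complex V genes and the 7 complex III genes counted all lie below 0, the 3 complex II assembly genes all lie above the band, and complex IV spreads from −0.93 (cox6a2) to 0.69 (cox4i1l).

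Complex I, the entry point for electrons from NADH, was lower in CCK1/2-KO as a whole. Its subunits summed to 0.170% of UMIs in CCK1/2-KO and 0.189% in WT, a log2 ratio of −0.15 (−0.16 to −0.13). Of the 34 subunits counted 32 were below 0, all but ndufv1 and ndufs4, against 49.9% of features. The most abundant were ndufb2, an accessory subunit of the membrane arm, at 112 CPM in CCK1/2-KO and 125 in WT (−0.17), ndufb7, another membrane arm subunit, at 72.7 and 85.8 (−0.24), and ndufa12 at 74.6 and 76.0 (−0.03). The highest ratio was that of ndufv1, which carries the flavin that accepts electrons from NADH, at 54.5 and 49.8 CPM (0.13, 0.05 to 0.21). The membrane arm subunit ndufb3 was the sole subunit of this complex past the called fold, at 52.5 CPM in CCK1/2-KO and 78.6 in WT (−0.58, −0.65 to −0.52). Its interval was below 0 in 3 of the 6 classes where it had at least 100 UMIs, at −0.64 in neuron-like, −0.71 in astroglia-like and −0.75 in macrophage or microglia-like cells, and held 0 in the other 3. The 6 assembly factors were scarce and summed to 0.00467% and 0.00477% of UMIs. Among them ndufaf5, ndufaf2 and ndufaf1 were at 13.1, 10.2 and 8.02 CPM in CCK1/2-KO and at 12.1, 9.35 and 8.75 in WT, with intervals that held 0. The lowest ratio was that of ndufaf7, a methyltransferase of a complex I subunit in human cells, at 1.35 and 2.07 CPM from 78 and 107 UMIs (−0.62, −1.06 to −0.19).

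Complex II, which oxidises succinate and belongs to the tricarboxylic acid cycle as well, was the complex on the other side. Its subunits summed to 0.0413% of UMIs in CCK1/2-KO and 0.0381% in WT (0.12, 0.09 to 0.15), and this excess came from sdha and sdhb. The flavoprotein gene sdha was at 195 CPM in CCK1/2-KO and 162 in WT (0.27, 0.23 to 0.31), and the iron-sulphur subunit gene sdhb at 63.4 and 56.6 (0.16, 0.09 to 0.23). The membrane anchor genes lay near or below 0, with sdhc at 93.8 and 96.2, sdhdb at 49.5 and 52.6 and sdhda at 11.3 and 13.2 CPM (−0.04, −0.09 and −0.22). None of these subunits passed the called fold over all barcodes. Of the 8 classes where sdha had at least 100 UMIs, its interval was above 0 in 5, among them astroglia-like cells with 251 CPM in CCK1/2-KO and 190 in WT (0.40), and below 0 in 0.

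The 3 complex II assembly factors were each higher past the called fold in CCK1/2-KO, against 13.2% of features, and they were 3 of the 5 members that were. The factor sdhaf2, which in yeast and human cells helps to attach the flavin into the sdha product, was at 41.1 CPM in CCK1/2-KO and 26.3 in WT (0.65, 0.55 to 0.74). The factor sdhaf4, which assists the same subunit, was at 19.2 and 14.9 (0.36, 0.23 to 0.50), and sdhaf3, which serves the iron-sulphur subunit, at 10.9 and 8.56 (0.35, 0.17 to 0.53). Within classes sdhaf2 had an interval above 0 in each of the 3 classes with at least 100 UMIs, at 40.6 against 25.9 CPM in neuron-like cells, 69.2 against 44.2 in astroglia-like cells and 34.2 against 19.9 in erythrocyte-like cells, with CCK1/2-KO before WT in each pair.

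**Figure D3:**
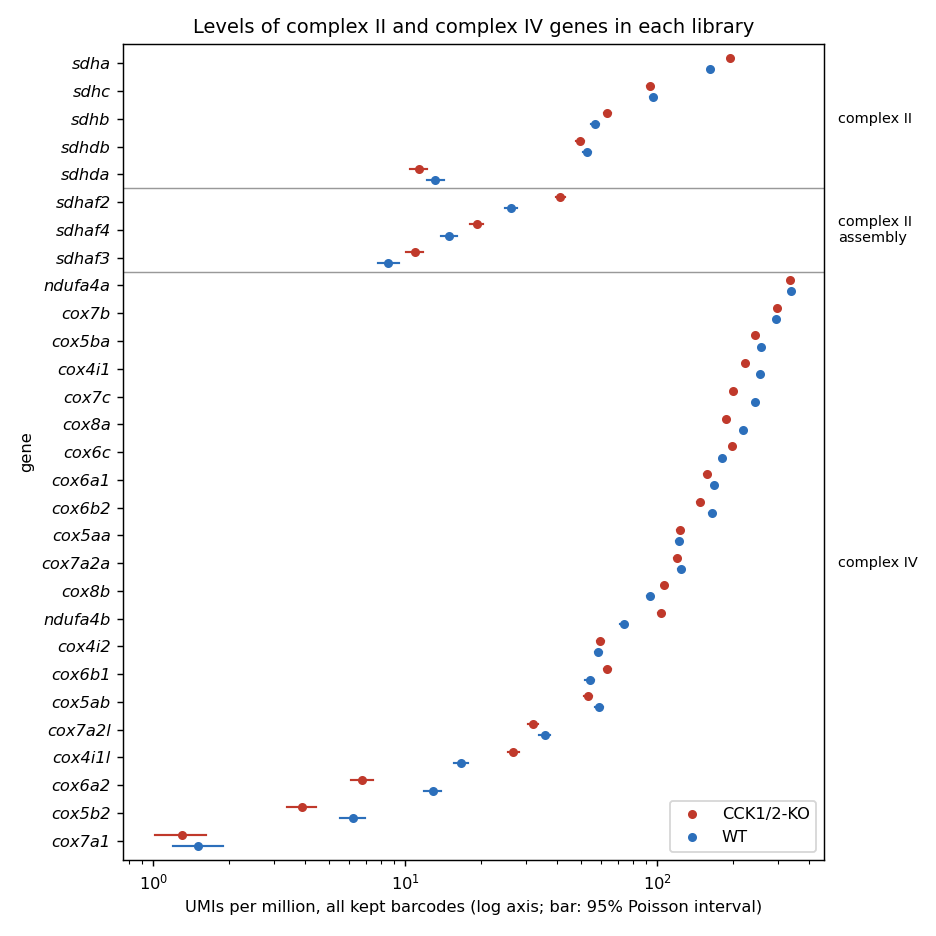
CPM of the complex II subunits, complex II assembly factors and complex IV genes over all kept barcodes (log axis), CCK1/2-KO in red and WT in blue; bars are 95% Poisson intervals. The red point lies right of the blue for sdha (195 and 162), sdhaf2 (41.1 and 26.3) and cox4i1l (26.8 and 16.7), and left of it for cox6a2 (6.73 and 12.8).

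Complex III, which hands electrons from ubiquinol to cytochrome c, was lower as a sum: 0.0512% of UMIs in CCK1/2-KO and 0.0561% in WT (−0.13, −0.16 to −0.11). All 7 genes counted were below 0 with little spread, against 49.9% of features, and none was past the called fold. The gene not counted, uqcrb, had 95 UMIs over both libraries. With a minimum of 1 UMI in each library it was past the called fold higher in CCK1/2-KO. The most abundant were uqcrh, the hinge subunit, at 129 and 140 CPM (−0.11), and the small accessory subunits uqcr10 at 103 and 110 (−0.10) and uqcrq at 95.1 and 105 (−0.14). The paralogs of a core subunit were both lower in CCK1/2-KO, with uqcrc2a at 14.7 and 18.1 CPM (−0.30, −0.43 to −0.16) and uqcrc2b at 46.6 and 54.5 (−0.23).

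Complex IV, the oxidase that reduces oxygen, had the widest spread. Its genes summed to 0.269% of UMIs in CCK1/2-KO and 0.278% in WT (−0.05, −0.06 to −0.04). Of its 21 genes 13 were below 0, against 49.9% of features, and 8 were above. Past the called fold 2 were higher, against 13.2% of features, and 2 were lower, against 12.2%. Its most abundant genes were nearly level between the libraries: ndufa4a at 335 CPM in CCK1/2-KO and 338 in WT (−0.01), cox7b at 298 and 296 (0.01) and cox5ba at 244 and 258 (−0.08). Paralogs of 1 subunit often lay on different sides of 0. Among the genes of subunit 4, cox4i1 was at 223 and 255 CPM (−0.20), cox4i1l at 26.8 and 16.7 (0.69, 0.56 to 0.81) and cox4i2 at 59.4 and 58.4 (0.03). The ndufa4 paralog ndufa4b was at 103 in CCK1/2-KO and 73.5 in WT (0.49, 0.43 to 0.54), beside the level ndufa4a. The pair cox8a and cox8b was at 188 and 219 (−0.22) and at 107 and 93.6 (0.19), and the pair cox6b2 and cox6b1 at 147 and 164 (−0.16) and at 63.4 and 53.8 (0.24).

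The lower end of complex IV was held by scarce paralogs. The gene cox6a2, whose mammalian counterpart is the heart and muscle form, was at 6.73 CPM in CCK1/2-KO and 12.8 in WT (−0.93, −1.12 to −0.75), while its paralog cox6a1 was at 157 and 168 (−0.10). The gene cox5b2 was at 3.88 and 6.18 (−0.67, −0.92 to −0.42). In erythrocyte-like cells, the 1 class with at least 100 UMIs of it, its ratio was −0.28 with an interval that held 0 (−0.67 to 0.10). For cox5aa and cox5ab the levels were 123 and 122 (0.02) and 53.0 and 58.6 (−0.15). The remaining genes, which have no paralog among the members on the other side, were cox6c, cox7c, cox7a2a, cox7a2l and cox7a1. Their levels were 197 in CCK1/2-KO and 181 in WT (0.13) for cox6c and 199 and 245 (−0.30) for cox7c. They were 119 and 124 (−0.06) for cox7a2a, 32.2 and 35.7 (−0.15) for cox7a2l and 1.29 and 1.51 (−0.22, an interval that holds 0) for cox7a1. Outside the members, COX7A2 and COX5B, named in capitals, were past the called fold higher in CCK1/2-KO. Reads of near-identical paralogs may not be told apart by the counting, and how the counting handled them is not given in the sources used here.

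Complex V, the ATP synthase, was lower in all 20 genes, against 49.9% of features. Its sum was 0.272% of UMIs in CCK1/2-KO and 0.302% in WT (−0.15, −0.16 to −0.14). The most abundant were atp5mc3b, which encodes the ring subunit turned by protons, at 310 and 320 CPM (−0.04), atp5f1b, the catalytic beta subunit, at 229 and 250 (−0.13), and atp5l, a membrane subunit, at 199 and 223 (−0.17). Other genes of the ring subunit were atp5mc3a at 107 and 120 (−0.16) and atp5mc1 at 163 and 184 (−0.17). The inhibitor genes atp5if1a and atp5if1b, whose product blocks ATP hydrolysis by the enzyme, were at 48.6 and 55.2 and at 154 and 175 CPM, each with a log2 ratio of −0.18. The sole gene past the called fold was atp5md, a small membrane subunit, at 85.7 in CCK1/2-KO and 119 in WT (−0.47, −0.53 to −0.42). Its interval was below 0 in 5 of 7 classes with at least 100 UMIs, at −0.41 in neuron-like and −0.72 in astroglia-like cells.

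Within cell classes the share of the members was lower in CCK1/2-KO in 8 of 10, by log2 ratios between −0.24 and −0.07. Astroglia-like cells had −0.24 (−0.25 to −0.22), oligodendrocyte-like cells −0.23 (−0.27 to −0.19) and neuron-like cells −0.07 (−0.08 to −0.07). In astroglia-like cells the median erythrocyte marker level was 19.4 UMIs per 10000 in CCK1/2-KO and 28.2 in WT. For T or NK cell-like cells, at −0.11, the interval held 0 when the marker minimum was doubled (−0.09, −0.19 to 0.01). The exceptions were oligodendrocyte precursor-like cells at 0.11 (0.06 to 0.17), from 93 CCK1/2-KO and 66 WT cells, and erythrocyte-like cells at 0.04, whose interval held 0. With haemoglobin genes out of the total the erythrocyte-like ratio was −0.07 (−0.10 to −0.03). With them in, it was −0.10 with at least 1000 UMIs and at most 10% mt- UMIs. It was −0.03 with the marker minimum doubled and −0.21 as medians of single cells. It stayed above 0 with every deposited barcode (0.01), without the highest Scrublet scores (0.02) and with subunits only (0.03). The sign for that class therefore depends on the denominator and on the other settings. Summed complex V was below 0 with its interval in 7 classes and above 0 in 0, whereas summed complex II was above 0 in 4, below in 0 and held 0 in 6. Summed complexes I and IV were each below 0 in 5 classes, above in 1 and held 0 in 4. Summed complex III was below 0 in 3, above in 1 and held 0 in 6.

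The count of members on each side of 0 also differed between classes. In neuron-like cells 70 of 92 members with at least 100 UMIs in the class were below 0, against 45% of features, and in astroglia-like cells 80 of 89, against 51.8%. Past a log2 ratio of −0.32, 31 of the 89 were lower in astroglia-like cells, against 16.8% of features. In oligodendrocyte-like cells 55 of 67 members were below 0, against 48.9% of features, and 29 were past the called fold lower, against 19.9%. In oligodendrocyte precursor-like cells 12 of 38 were below 0, against 51.6%. Past the called fold higher were 9 of the 38, near the 20% of features. Picked from those 38 after their values were seen, uqcrq had 70 UMIs in CCK1/2-KO and 34 in WT (0.84) and uqcr10 had 117 and 60 (0.76). That class carried the weakest marker check, and its median cell held 38.7 astroglia marker UMIs per 10000 in CCK1/2-KO and 39.3 in WT. The part of these markers in the result was not tested.

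The ratio of nuclear to mt- UMIs differed between genotypes in some classes and not in others. It was 0.292 in CCK1/2-KO and 0.379 in WT for oligodendrocyte-like cells (log2 ratio −0.38, −0.43 to −0.33), 0.263 and 0.223 for T or NK cell-like cells (0.24, 0.15 to 0.33), and 0.213 and 0.19 for vascular endothelium-like cells (0.16, 0.12 to 0.21). In the median oligodendrocyte-like cell the astroglia markers were at 24.2 UMIs per 10000 in CCK1/2-KO and 29.2 in WT and the neuron markers at 12.2 and 14.2. The median depth of that class was 4346 and 5128.5 UMIs. In the median T or NK cell-like cell the macrophage or microglia markers were at 12.3 UMIs per 10000 in CCK1/2-KO and 23.7 in WT and the oligodendrocyte markers at 0 and 3.83, and in the median vascular endothelium-like cell the erythrocyte markers were at 74.4 and 32.0. The part of these markers and of depth in the ratios was not tested. In astroglia-like cells the log2 ratio was 0.11, and in neuron-like cells −0.01 with an interval that held 0. In all, 4 classes were below 0, 3 above and 3 held 0. By complex and over all kept barcodes, the nuclear UMIs per mt- UMI were 0.509 in CCK1/2-KO and 0.478 in WT for complex I, 0.263 and 0.289 for complex III, 0.206 and 0.21 for complex IV, and 0.976 and 0.834 for complex V. For complex V the nuclear and the mt- genes were both lower in CCK1/2-KO, the mt- genes by more, at 0.279% of UMIs in CCK1/2-KO and 0.362% in WT.

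Both shares depended on the depth of a barcode, so genotypes were also compared within depth ranges. In neuron-like cells the share of the members was lower in CCK1/2-KO in all 5 ranges, with 0.92% against 1.15% in WT from 1000 to below 2000 UMIs (log2 ratio −0.32) and 1.02% against 1.03% at 10000 UMIs or more (−0.01, an interval that holds 0). In astroglia-like cells it was lower in 4 of 5 ranges and higher from 500 to below 1000 UMIs, where it was 1.34% in CCK1/2-KO and 1.26% in WT. In erythrocyte-like cells it was lower in all 5 ranges, at 0.819% and 0.902% in the shallowest cells and 0.157% and 0.239% in the deepest, although the pooled ratio of that class was above 0. The share of mt- genes in neuron-like cells was 4.54% in CCK1/2-KO and 5.20% in WT in the shallowest range, and 1.86% and 1.95% in the deepest. Which of neuron-like and astroglia-like cells had the larger member share also changed with depth. From 1000 to below 2000 UMIs astroglia-like cells were higher, at 1.60% in CCK1/2-KO and 1.85% in WT. From 5000 to below 10000 UMIs neuron-like cells were higher, at 0.852% against 0.799% in CCK1/2-KO and 0.922% against 0.85% in WT.

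**Figure D4:**
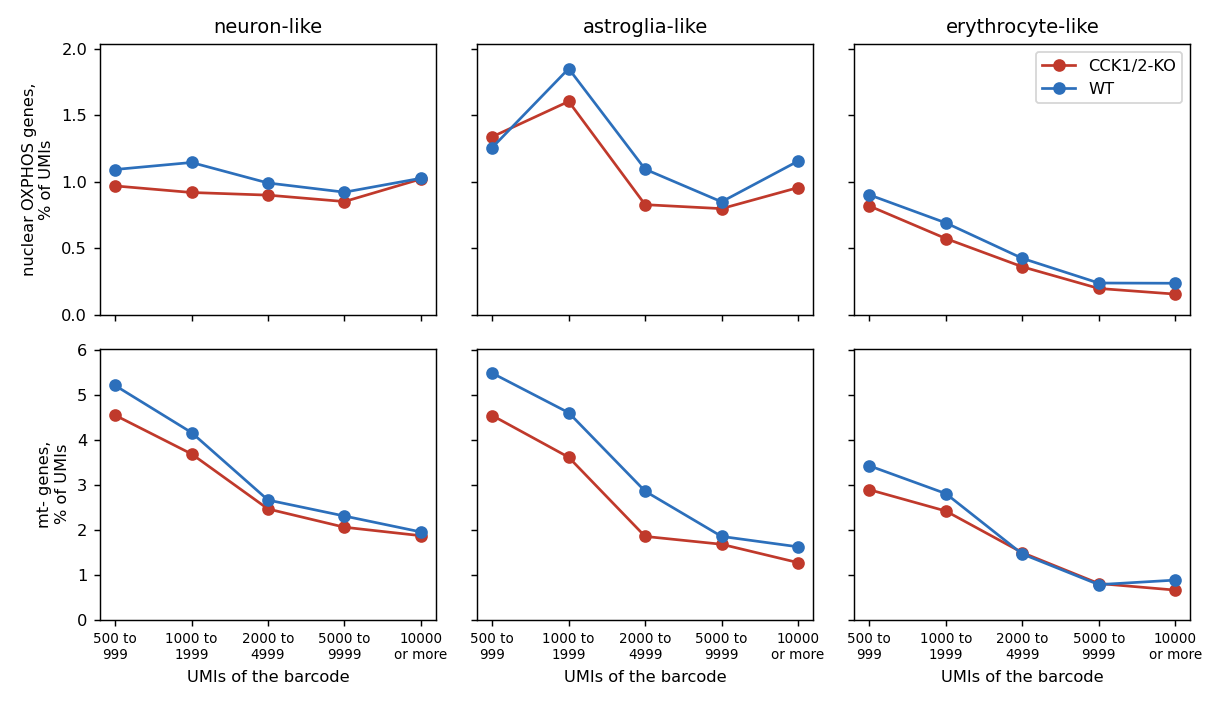
Share of UMIs, in percent, of the nuclear members (top) and the mt- genes (bottom) in 5 ranges of UMIs per barcode, for neuron-like, astroglia-like and erythrocyte-like cells; CCK1/2-KO in red, WT in blue, 1 library each. The red line of the members lies below the blue in all ranges of neuron-like and erythrocyte-like cells and crosses it in astroglia-like cells between the 2 shallowest ranges.

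Most members were spread over the cell classes, and 7 of 96 (7.29%) were at least 4-fold above all other barcodes in a class in both libraries, against 25% of features. The 7 were cox5b2, cox7a1 and cox6a2 in erythrocyte-like cells, cox6a2 also in macrophage or microglia-like cells, cox4i1l in vascular endothelium-like cells, cox4i2 in astroglia-like cells, and ndufa4b and sdhda in neuron-like cells. The complex II anchor gene sdhda was at 20.9 CPM in CCK1/2-KO neurons and 24.5 in WT neurons, against 3.24 and 3.70 in all other barcodes.

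The gene cox4i2, whose mammalian counterpart is induced by low oxygen, was highest in astroglia-like, oligodendrocyte-like and mural cell-like cells. It was at 219 CPM in astroglia-like cells of CCK1/2-KO and 220 of WT, at 174 and 154 in oligodendrocyte-like and at 130 and 128 in mural cell-like cells, and at 7.82 and 6.83 in neuron-like cells. Among the UMIs of the 3 subunit 4 genes, cox4i2 held 53.4% (51.7 to 55.0) in CCK1/2-KO astroglia and 46.5% (44.8 to 48.2) in WT astroglia, against 2.51% and 2.11% in neurons. After thinning each cell to 1000 UMIs, 19.2% of astroglia-like cells in each library had a UMI of cox4i2 (43.5% and 39.4% unthinned), against 1.08% and 0.508% of neuron-like cells. Thinning left out 482 CCK1/2-KO and 362 WT astroglia-like cells and 661 and 470 neuron-like cells below that depth. The neurons were the deeper class, with a median of 5425 and 6432 UMIs against 2402 and 2472 in astroglia.

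The gene cox4i1l stood out in the vascular endothelium. It was at 220 CPM in CCK1/2-KO and 151 in WT (0.55, 0.32 to 0.77) in that class, where it held 63.2% (59.7 to 66.6) and 41.1% (37.1 to 45.1) of subunit 4 UMIs. The common form cox4i1 was at 105 and 180 in the same cells (−0.78, −1.04 to −0.53). In neuron-like cells cox4i1l was at 24.7 and 13.8 CPM (0.85). Thinned to 1000 UMIs, 17.4% of endothelium-like cells in CCK1/2-KO and 18.9% in WT had a UMI of it, so the higher level in CCK1/2-KO was not seen in the share of cells at that depth. In astroglia-like cells 0 of 1024 thinned cells in CCK1/2-KO had a UMI of it, with an exact upper limit of 0.36%, and 0.683% in WT (1.73% and 1.53% unthinned). Summed over that class the order was reversed. There cox4i1l had 35 UMIs in CCK1/2-KO and 22 in WT, or 0.955% and 0.634% of subunit 4 UMIs.

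Neurons were marked by ndufa4b, at 194 CPM in CCK1/2-KO and 142 in WT (0.45, 0.39 to 0.52), against 26.5 and 16.3 in all other barcodes. It made up 38.3% (37.5 to 39.1) of ndufa4 UMIs in CCK1/2-KO neurons and 30.8% (29.9 to 31.7) in WT neurons, and 2.37% and 1.43% in astroglia. Thinned to 1000 UMIs, 13.8% of neuron-like cells in CCK1/2-KO and 12.1% in WT had a UMI of ndufa4b, with overlapping intervals, against 2.15% and 0.91% of astroglia-like cells. Its ratio was also above 0 in the other 2 classes with at least 100 UMIs.

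**Figure D5:**
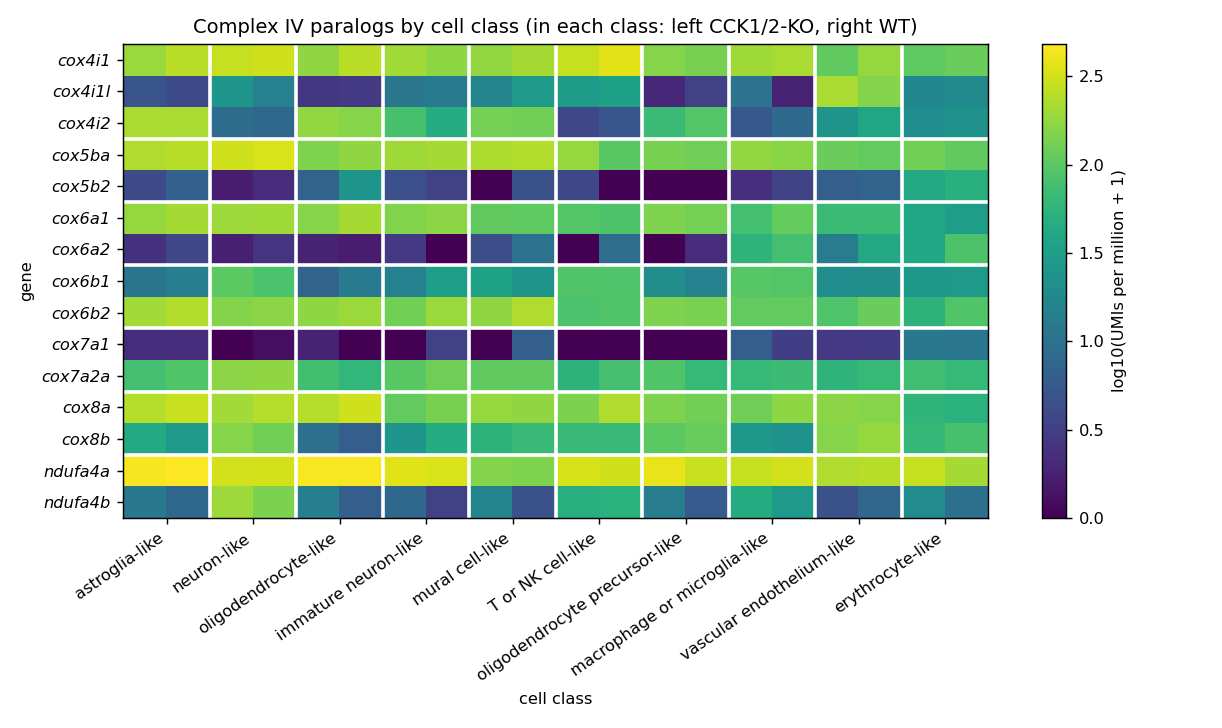
Level of complex IV paralogs in each cell class as log10 of CPM plus 1 (colour), with CCK1/2-KO in the left and WT in the right column of each class; white lines separate paralog sets. In both libraries cox4i2 is bright in astroglia-like, oligodendrocyte-like and mural cell-like columns, cox4i1l in vascular endothelium-like columns and ndufa4b in neuron-like columns, while ndufa4a and cox4i1 are bright throughout.

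The form cox6a2 took a large part of the cox6a transcripts in erythrocyte-like and macrophage or microglia-like cells. It held 42.1% (37.1 to 47.2) of cox6a UMIs in CCK1/2-KO and 40.5% (35.8 to 45.2) in WT macrophage or microglia-like cells, against 0.368% and 0.76% in neurons. Thinned to 1000 UMIs, 7.10% of macrophage or microglia-like cells in CCK1/2-KO and 7.95% in WT had a UMI of cox6a2 (17.0% and 21.8% unthinned), against 0.09% and 0.195% of neuron-like cells. In erythrocyte-like cells it held 51% (43.9 to 58.0) and 73.3% (67.8 to 78.3), and in vascular endothelium-like cells 16.2% and 37.5%. Among T or NK cell-like cells it held 0 of 33 cox6a UMIs in CCK1/2-KO and 4 of 46 in WT. Its level was lower in CCK1/2-KO in both classes, at 55.1 against 75.7 CPM in WT macrophage or microglia-like cells (−0.46, −0.77 to −0.14) and 39.1 against 84.1 in erythrocyte-like cells (−1.11, −1.46 to −0.76). Erythrocyte-like cells also carried cox5b2 at 40.6 CPM in CCK1/2-KO and 49.4 in WT (−0.28, −0.67 to 0.10). They carried cox7a1 at 10.9 and 10.4, from 29 and 26 UMIs.

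Other paralog pairs were also shared out between classes, to differing degrees. The gene cox8b held 43.8% of cox8 UMIs in CCK1/2-KO neurons and 35.1% in WT neurons. It held 48.6% and 53.6% in vascular endothelium-like cells, 52.4% and 60.7% in erythrocyte-like cells, and 3.47% and 1.76% in oligodendrocyte-like cells. The gene cox6b1 held 39.4% and 33.7% of cox6b UMIs in neurons, 47.3% and 45.3% in macrophage or microglia-like cells, and 4.66% and 5.26% in astroglia. By contrast cox5ab, at 30.1% and 32.5% over all barcodes, held 29.5% and 31.2% in neurons and 39.8% and 40.7% in astroglia. Of the features named in capitals and left out of the group, NDUFA4L2 was at 1438 CPM in CCK1/2-KO and 1619 in WT mural cell-like cells, and at 47.2 and 66.8 over all barcodes (−0.50, −0.57 to −0.43). It was past the called fold lower, whereas COX7A2 and COX5B were past it higher, from 3144 and 112 UMIs over both libraries.

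Among related gene lists, the tricarboxylic acid cycle and mitochondrial transport genes were mostly below 0. In the other lists the count below 0 was near the share of features. The tricarboxylic acid cycle list left out the complex II genes, of which sdha and sdhb were above 0. All 14 genes counted on that list were below 0, against 49.9% of features, with a summed log2 ratio of −0.20 (−0.21 to −0.18). Past the called fold lower was 1 of them, ogdha (−0.36), against 12.2% of features. Of 28 other electron transport and assembly genes, 12 were below 0, 6 were past the called fold higher and 2 past it lower, against 49.9%, 13.2% and 12.2% of features. The 6 were cox17, a copper chaperone of complex IV (0.67), uqcc3, an assembly factor of complex III (0.63), and cox11, surf1, foxred1 and cox20, which serve the assembly of complexes IV and I in human cells (0.38 to 0.59). The 2 past it lower were bcs1l (−0.38) and cox19 (−0.37). Of 21 glycolysis genes 11 were below 0, with 2 past the called fold on each side, near or under the shares of features. Of 13 mitochondrial transport genes 10 were below 0, against 49.9% of features. Of 12 regulators of mitochondrial gene expression 5 were below 0, against 49.9% of features. The highest was twnk, the mitochondrial DNA helicase, at 0.57 and the lowest PPARGC1A, a coactivator of respiratory genes, at −0.36. PPARGC1A was at 20.6 CPM in CCK1/2-KO and 26.4 in WT. On the same list ppargc1b was at 175 and 147 (0.25, 0.21 to 0.30).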

How the data were processed

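The authors deposited 1 matrix per library with UMI counts of genes in barcodes; the submitters' processing notes name Cell Ranger, Seurat and GRCz11, and the deposited counts carried no normalization or cell type. Counts were whole numbers, and no barcode had fewer than 500 UMIs. Barcodes with at least 500 UMIs, 250 genes and at most 20% mt- UMIs were kept. No doublet caller was applied in the main analysis; barcodes with markers of 2 classes, where the second reached 50% of the first, entered no class. Classes were set from marker UMIs per 10000 against minimums chosen after the data were seen, with 180 of 191 markers found. Levels are UMIs summed over cells, per 1000000 (CPM), with exact Poisson intervals; shares carry Clopper-Pearson intervals, ratios the exact interval of 2 Poisson counts, and ratios to mt- genes a normal interval on the log scale. Levels were not divided by transcript length, so the order of genes also reflects capture of transcript ends. A log2 ratio of 0.32 (5 over 4) and a minimum of 100 UMIs served as the call, with no p-value, because cells of 1 library are not replicates.

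Named genes were, per complex, the 3 most abundant and the highest and lowest ratio, members at least 4-fold concentrated in a class with at least 20 UMIs, paralog sets, and members below 20 UMIs; others named (ndufs4, ndufb11, sdhdb, sdhaf3, sdhaf4, uqcrb, cox7c, mt- and list genes) were chosen after their values were seen. Members, lists and classes were chosen with earlier results of these data known. The scripts were tested on simulated data. Tools were Python 3.11.15, numpy 2.4.6, scipy 1.17.1, pandas 2.3.3, scanpy 1.11.5 (Scrublet) and matplotlib 3.10.9. Alternatives changed the filters, doublets, denominator, size factors, classes and gene set. No coordinates or sequences were used.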

Additional observations from a re-analysis of the deposited data

Results flagged for a closer look

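In 2 quantities some cell classes lay on the other side of 0 from most classes, with counting intervals that exclude 0; the difference between classes was not tested. The share of the nuclear members had a log2 ratio of CCK1/2-KO over WT of 0.11 in oligodendrocyte precursor-like cells, while 8 classes were below 0. The share of the 13 mt- genes had log2 ratios of 0.15 in oligodendrocyte-like cells (2.25% in CCK1/2-KO and 2.04% in WT), 0.060 in oligodendrocyte precursor-like cells (1.60% and 1.54%) and 0.079 in erythrocyte-like cells (1.80% and 1.70%), while 6 classes were below 0.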

How the results depend on the processing

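No paired analysis was possible because each genotype has 1 library. For the same reason no library could be left out. Of 62 alternatives for the main results, 47 left the value within counting error and the counts within 1.5 times. The log2 ratio of the nuclear share was −0.0983 (−0.1042 to −0.0924). Without the barcodes of highest Scrublet score it still rounded to −0.10 but lay just outside that interval, a small move. As a mean of single-cell shares it was −0.13. The sign was negative in all alternatives run. The log2 ratio of nuclear to mt- UMIs, 0.01, was 0.00074 without those barcodes, 0.041 as a mean of single-cell shares and −0.0062 in neuron-like cells alone, where its interval held 0, so its sign is not settled. Scrublet removal took 1052 barcodes (9.17%) in CCK1/2-KO and 684 (7.40%) in WT, whose median depth was 2128 and 2158 UMIs (2874 and 3072 in the rest). Of the 5 members past the called fold higher, 2 were left with subunits alone, since the 3 complex II assembly factors drop out by construction. In neuron-like cells alone 3 members were past the called fold lower (ndufb3, atp5md and uqcrc2a), of which 2 are among the 5. The highest class share over the lowest, 2.06 in CCK1/2-KO and 2.48 in WT, was 2.72 and 2.97 with at least 1000 UMIs and at most 10% mt- UMIs, 2.56 and 2.96 with the marker minimum doubled, 1.81 and 1.98 as medians of single cells, and 1.94 and 2.12 with haemoglobin genes out of the total. Neuron-like and astroglia-like cells were the first 2 of the 10 classes in all 8 settings of both libraries. In CCK1/2-KO neuron-like cells came first under the stricter filter and as medians, and astroglia-like cells in the other settings. The erythrocyte-like ratio, 0.04, was −0.10 under the stricter filter, −0.03 with the marker minimum doubled, −0.21 as medians and −0.07 with haemoglobin genes out. As medians of single cells the ratio was −0.12 in neuron-like cells (−0.07 in summed counts) and −0.20 in vascular endothelium-like cells (−0.11). As medians it was also −0.18 in oligodendrocyte-like cells (−0.23) and −0.25 in mural cell-like cells (−0.17). With the marker minimum doubled it was −0.06 in macrophage or microglia-like cells (−0.10) and −0.06 in neuron-like cells. Without the barcodes of highest Scrublet score it was −0.09 in neuron-like cells. With the erythrocyte-like values, these are the 11 of 70 class alternatives that moved outside the counting interval. The settings with neuron-like cells alone, with haemoglobin genes out of the total and with the class makeup held at WT were chosen after seeing the data.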
